A study of Homo sapiens with 12 samples.

Results

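The 10 genes described here encode the 5 NF-kB subunits (NFKB1, NFKB2, REL, RELA and RELB), 3 proteins that hold NF-kB in check or modify its output (NFKBIA, NFKBIZ and TNFAIP3) and 2 products of its classical target genes (BIRC3 and SOD2). They were taken by gene symbol from a table of 26475 symbols, and all 10 passed the filter on low counts in every comparison. The list was chosen from general knowledge of the pathway, but with the fold changes of these same libraries after BAY-850 treatment already seen. Counts of members that changed with BAY-850, and the tests beside them, therefore describe these libraries and are not independent evidence.

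NF-kB is a family of dimeric transcription factors. In resting cells the dimers are kept in the cytoplasm by inhibitors of the IkB family, and signals from receptors for TNF, IL-1 or bacterial products activate the IKK kinases, which mark the IkB proteins for degradation and free dimers of RELA with the NFKB1 product p50 (the canonical arm). A slower, noncanonical arm processes the NFKB2 product p100 to p52, which pairs with RELB. Many genes that NF-kB activates encode its own subunits and inhibitors, so that the pathway feeds back on itself.

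PA-1 is an established human line from an ovarian teratocarcinoma, grown in DMEM, and SK-OV-3 is an established human line from an ovarian adenocarcinoma, grown in RPMI medium. Both media held 10% fetal bovine serum, and because each line had its own medium, line and medium cannot be told apart. Each line was given either the vehicle DMSO or 5 µM BAY-850, an inhibitor of the bromodomain protein ATAD2, for 48 h, with 3 biological replicates in each of the 4 groups (12 libraries). A single compound, dose and time was sampled, and the libraries held no knockdown of ATAD2. The comparison asks which RNAs change when ATAD2 is inhibited in ovarian cancer cells.

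DNA elements to which NF-kB dimers bind, called kB sites, are known in the promoters of several of these genes. RefSeq promoter windows of GRCh38.p14, from 250 bases before to 50 bases after each annotated start, were found for 9 of the 10 genes (17 windows), and RELB had no entry. The motif GGGNNTTTCC (N is any base) was searched on both strands. The 4 windows below are shown because 3 belong to genes whose RNA rose in SK-OV-3 cells (NFKBIA, BIRC3 and NFKB2) and 1 to a gene whose RNA did not pass the test in either line (TNFAIP3). Each is written 5′ to 3′ on the strand of its gene, and capitals mark the motif or its reverse complement.
NFKBIA, chr14:35404700-35404999, minus strand: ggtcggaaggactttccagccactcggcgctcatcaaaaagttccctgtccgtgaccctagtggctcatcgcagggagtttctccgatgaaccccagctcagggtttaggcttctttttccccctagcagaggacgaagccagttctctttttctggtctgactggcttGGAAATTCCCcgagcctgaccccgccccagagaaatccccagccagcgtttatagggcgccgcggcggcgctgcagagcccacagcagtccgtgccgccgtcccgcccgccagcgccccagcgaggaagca
BIRC3, chr11:102317234-102317533, plus strand: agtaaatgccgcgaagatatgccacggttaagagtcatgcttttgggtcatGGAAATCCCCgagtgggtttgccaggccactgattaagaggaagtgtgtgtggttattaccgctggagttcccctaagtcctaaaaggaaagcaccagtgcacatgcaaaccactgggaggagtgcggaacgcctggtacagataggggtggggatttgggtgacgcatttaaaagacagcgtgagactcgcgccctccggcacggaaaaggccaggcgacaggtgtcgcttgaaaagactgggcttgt
NFKB2, chr10:102395455-102395754, plus strand: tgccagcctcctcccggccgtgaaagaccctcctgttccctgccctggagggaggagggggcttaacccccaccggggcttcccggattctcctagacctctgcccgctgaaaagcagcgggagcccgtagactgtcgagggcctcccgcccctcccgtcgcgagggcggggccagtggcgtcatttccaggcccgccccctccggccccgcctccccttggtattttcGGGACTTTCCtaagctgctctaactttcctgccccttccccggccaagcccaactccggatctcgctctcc
TNFAIP3, chr6:137867009-137867308, plus strand: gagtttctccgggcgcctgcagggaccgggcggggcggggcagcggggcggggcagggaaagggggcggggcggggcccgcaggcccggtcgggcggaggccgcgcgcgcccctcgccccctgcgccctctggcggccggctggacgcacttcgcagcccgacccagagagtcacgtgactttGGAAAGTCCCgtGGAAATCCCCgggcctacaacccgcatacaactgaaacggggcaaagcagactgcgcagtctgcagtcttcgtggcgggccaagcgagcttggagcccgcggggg

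The TNFAIP3 window held the motif at 2 neighbouring positions, 67 and 55 bases before the start. In the NFKBIA window it began 81 bases, and in the BIRC3 window 199 bases, before the start, while in the third NFKB2 window it began 21 bases before the start. The remaining matches among the members are given alone, as the 10 bases on the strand of the gene, to show how the same letters recur in the subunit genes and NFKBIZ.
NFKB1, chr4:102501310-102501319, 49 bases before the start: GGGAATTTCC
NFKB2, chr10:102394500-102394509, 78 bases before the start: GGGGCTTTCC
REL, chr2:60881528-60881537, 46 bases before the start: GGAAATTCCC
NFKBIZ, chr3:101827767-101827776, 223 bases before the start: GGGAATTTCC

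Of the 17 windows 8 held the motif, which was present in 1.91% of 35116 windows of the same length, and 7 of the 9 genes had it in at least 1 window, against 2.33% of 27305 genes. The broader kB consensus, which takes in every match above, was found in 9 of the 17 windows and in 11.3% of all windows. RELA and SOD2 had no match to either form in any window. All 4 members with a window that did not pass the test in SK-OV-3 cells (NFKB1, REL, NFKBIZ and TNFAIP3) held the motif, and so did 3 of the 5 members with a window that rose there, so its letters did not separate the responding genes from the others. A match in sequence is a description and not a measured binding site, and genes with known kB sites were among those the list was drawn up from.

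The total expected count per library ranged from 34544505 to 51840233, and the rarest member, BIRC3 in PA-1 cells with DMSO, still had 97 to 155 counts. Levels are given in CPM, counts scaled to a common library total with TMM factors over the 12 libraries, and "called" means an adjusted p under 0.05 in edgeR's quasi-likelihood test over all genes. BAY-850 replicate 3 of SK-OV-3 had the fewest genes with counts, 15629 against 17425 to 18414 in the other libraries. Ribosomal RNA genes took the largest share of counts, 16.87%, in PA-1 BAY-850 replicate 3. Their smallest share, 7.942%, was in SK-OV-3 DMSO replicate 2. ATAD2 itself was not called in PA-1 cells (log2 fold change -0.18, adjusted p = 0.118) and fell by 0.47 on the log2 scale in SK-OV-3 cells (adjusted p = 0.0014), which is no check of the drug, since BAY-850 acts on the protein. Of 7 pluripotency markers fixed for PA-1, 7 averaged at least 1 CPM there and 1 did so in SK-OV-3. All 7 markers fixed for SK-OV-3 did so in that line and 4 of them also in PA-1. Of these 4, KRT18 (335 against 266 CPM) was higher in PA-1 than in SK-OV-3 with DMSO, and KRT8 (532 against 599 CPM) was close. KRT19 (15.7 against 526 CPM) and ERBB2 (61.3 against 2420 CPM) were higher in SK-OV-3. Of 7 leukocyte and endothelial markers, 1 (PECAM1) reached 1 CPM in any group and HBB was at 0 in all libraries. In SK-OV-3 libraries the markers of that line summed to 4350 to 4650 CPM under the vehicle and to 3200 to 3680 CPM after treatment. ERBB2 was the largest part of this sum, with a mean of 2420 CPM in vehicle cultures and 1780 CPM in treated ones. PAX8 went the other way, from a mean of 223 to one of 324 CPM, while each remaining marker of the list had a lower mean after treatment. What part these shifts had in the changes below was not tested. In RNA from whole cultures, fewer cells with a transcript and less transcript per cell cannot be told apart.

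In the vehicle-treated cells, the 2 lines held the subunits in opposite proportions. SK-OV-3 cells had more RNA of the canonical subunits RELA and NFKB1, of REL, of NFKBIA, NFKBIZ and TNFAIP3 and of both target genes. PA-1 cells had more of the noncanonical subunits NFKB2 and RELB. All 10 genes were called between the lines, 8 higher and 2 lower in SK-OV-3, where 40.1% and 40.2% of 16070 genes were called higher and lower. The median log2 difference was 1.41 for the members and 0.002 for all genes tested.

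RELA, on chromosome 11 (chr11:65653596-65663094), encodes the p65 subunit, which carries the transactivation domain of most canonical dimers. It stood at 33.3, 33.1 and 34.5 CPM in the PA-1 libraries with DMSO and at 116, 108 and 114 CPM in those of SK-OV-3, a log2 difference of 1.74 (SE 0.0598, adjusted p = 2.77e-11). NFKB1 (chr4:102501329-102617302), the source of p50, was at 19.7 to 20.6 CPM in PA-1 and 53.2 to 61.8 CPM in SK-OV-3, with a log2 difference of 1.55 (SE 0.0773). NFKB2 went the other way. This gene, at chr10:102394110-102402529, encodes p100, and its level of 87.1, 76.5 and 80.6 CPM in PA-1 exceeded the 23.4, 22.3 and 22.8 CPM in SK-OV-3, a log2 difference of -1.84 (SE 0.0699, adjusted p = 7.53e-11). RELB (chr19:45001430-45038198), the partner of p52, was at 25.2, 27 and 25.2 CPM in PA-1 and 11, 11.7 and 12.2 CPM in SK-OV-3, a log2 difference of -1.15 (SE 0.0907). REL (chr2:60881521-60931610), best known from lymphocytes, differed least, at 6.32 to 6.65 CPM in PA-1 and 8.5 to 11.1 CPM in SK-OV-3 (log2 difference 0.60, SE 0.145, adjusted p = 0.00198).

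Among the inhibitors and modifiers, NFKBIZ (chr3:101827991-101861022), which encodes the nuclear protein IkB-zeta, had the widest gap between the lines. Its 9.17 to 9.73 CPM in PA-1 stood against 59.1 to 67.6 CPM in SK-OV-3, a log2 difference of 2.73 (SE 0.0809, adjusted p = 6.75e-12). NFKBIA (chr14:35401511-35404749), the gene of IkB-alpha, was at 17.0 ± 1.29 CPM (SD, n = 3) in PA-1 and 47.0 ± 3.71 CPM in SK-OV-3. TNFAIP3 (chr6:137867188-137883312), whose product A20 edits ubiquitin chains upstream of IKK, was at 17.0 ± 2.35 CPM and 38.8 ± 1.51 CPM. The target genes differed as well. SOD2 (chr6:159669057-159745186), the mitochondrial superoxide dismutase, averaged 12.3 ± 1.81 CPM in PA-1 and 70.2 ± 4.66 CPM in SK-OV-3 (log2 difference 2.51, SE 0.1). BIRC3 (chr11:102317450-102339403), the ubiquitin ligase cIAP2, averaged 3.27 ± 0.407 CPM and 8.36 ± 0.814 CPM.

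**Figure D1:**
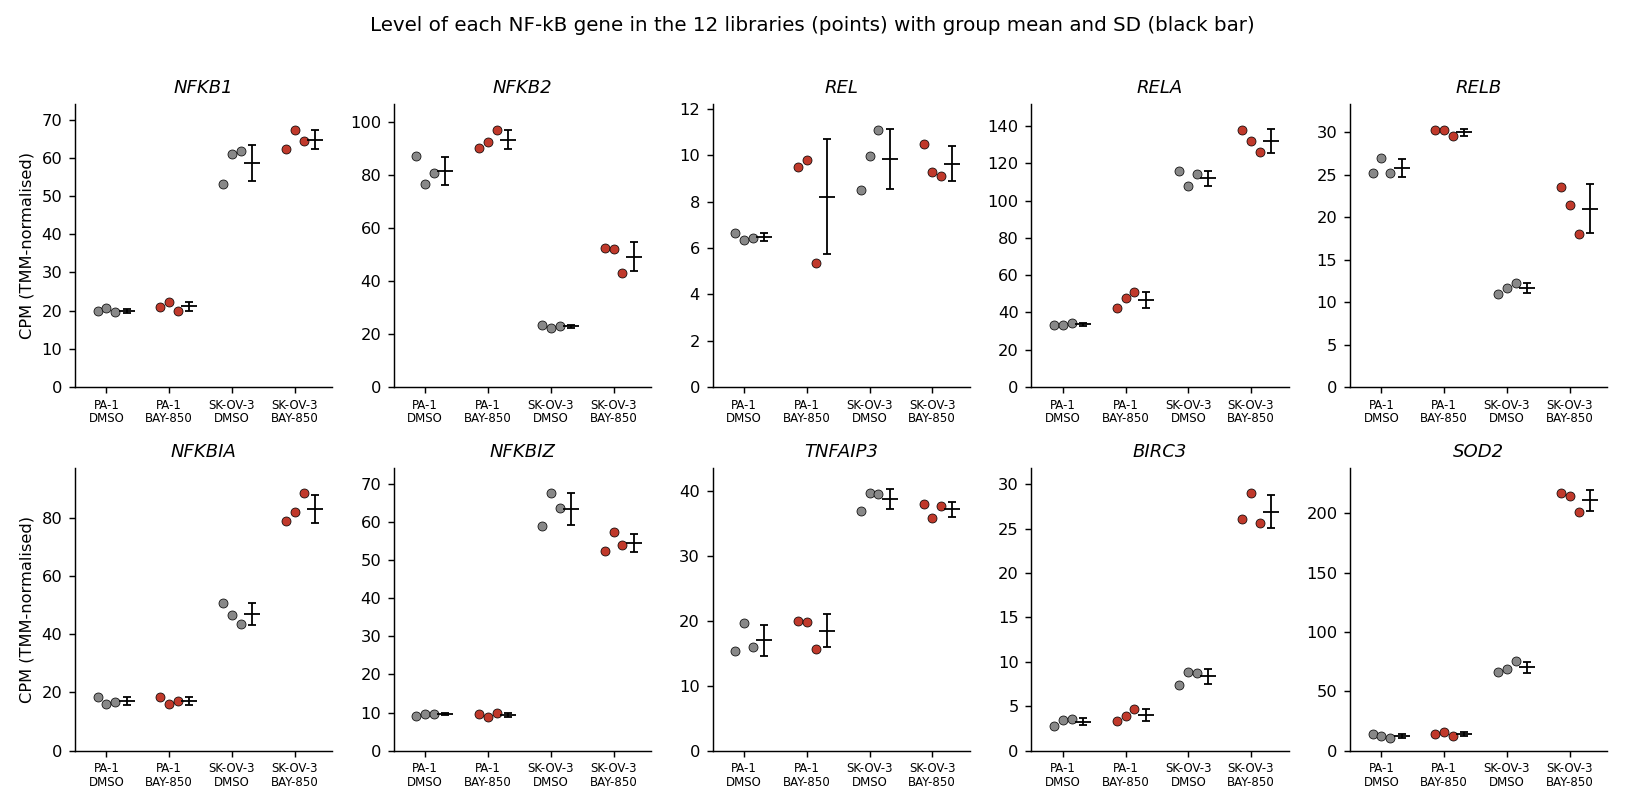
Level of each of the 10 genes in CPM (vertical axis, from 0) in the 12 libraries, with 1 point per library (grey DMSO, red BAY-850) and a black bar for the mean and SD of each group of 3. The SK-OV-3 points of SOD2, BIRC3, NFKBIA, NFKB2 and RELB lie well above their DMSO points after BAY-850, while the shift of the same genes in PA-1 is smaller, and NFKB2 and RELB start higher in PA-1.

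Compared per kilobase of exon, which allows levels of different genes to be set side by side, the leading member with DMSO was NFKB2 in PA-1 (22.1 ± 1.45 CPM per kb, SD, n = 3), followed by RELB (11.2 ± 0.46) and RELA (9.93 ± 0.225). In SK-OV-3 it was RELA (33.2 ± 1.19 CPM per kb), followed by NFKBIA (24.8 ± 1.95) and NFKBIZ (15.1 ± 1.02), with NFKB2 sixth at 6.19 ± 0.148. With DMSO, only NFKB1 and TNFAIP3 in PA-1 were neighbours in this order whose libraries overlapped. BIRC3 was last in PA-1 (0.473 ± 0.0589 CPM per kb) and REL was last in SK-OV-3 (0.875 ± 0.114). After BAY-850, NFKBIA led in SK-OV-3 (43.8 ± 2.53 CPM per kb) ahead of RELA (38.9 ± 1.9), and NFKB2, SOD2 and NFKBIZ followed at 13.3, 13.2 and 13.0 CPM per kb with overlapping libraries. Exon lengths are unions over annotated transcripts, and those of SOD2 (16.008 kb) and REL (11.255 kb) hold long exons, so their levels per kb serve only for a rough order.

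BAY-850 raised 6 of the 10 genes in SK-OV-3 cells. The increases were largest for the target genes BIRC3 and SOD2, followed by the noncanonical subunits NFKB2 and RELB and by the inhibitor NFKBIA, and RELA rose slightly. NFKB1, REL, NFKBIZ and TNFAIP3 were not called. Across all genes tested in this line, 10.8% were called higher and 9.56% lower, and the median log2 fold change was 0.54 for the members and -0.009 for the 15348 genes tested. No member was called lower by edgeR in the fit of this line, although 1 (NFKBIZ) was lower at an unadjusted p under 0.05 and was called lower by DESeq2 and in 3 other edgeR fits. The BAY-850 and DMSO libraries did not overlap for 7 members that were higher and 1 that was lower, a pattern shown by 38.6% of all genes tested. Without BAY-850 replicate 3, the library that stood apart, the count of members called higher was again 6.

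SOD2 had the clearest change of the group. Its level was 66.1, 69.1 and 75.3 CPM with DMSO and 217, 215 and 201 CPM with BAY-850, a fitted log2 change of 1.60 (SE 0.0596, adjusted p = 2.68e-08) that ranked 8 by p among the 15348 genes. All 3 treated libraries lay far above the controls, at 3.04 times their level. BIRC3 rose from 7.42, 8.89 and 8.76 CPM to 26.1, 29 and 25.6 CPM, a log2 fold change of 1.70 (SE 0.11, adjusted p = 1.5e-06). This is the gene whose product binds TRAF2, and the lowest treated library lay far above the highest control.

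Of the noncanonical subunits, NFKB2 went from 23.4, 22.3 and 22.8 CPM to 52.4, 52.1 and 42.9 CPM, which is a log2 fold change of 1.12 (SE 0.0855, adjusted p = 5.52e-06). RELB moved from 11, 11.7 and 12.2 CPM to 23.6, 21.4 and 18 CPM (log2 fold change 0.86, SE 0.116, adjusted p = 0.000379). In both genes the lowest treated library was BAY-850 replicate 3, and without it the log2 fold changes were 1.2 and 0.95. The canonical subunits moved little. RELA was at 116, 108 and 114 CPM with DMSO and at 138, 132 and 126 CPM with BAY-850, which is a rise of 0.24 on the log2 scale (SE 0.0554, adjusted p = 0.00985). That call was lost without DMSO replicate 2 (log2 fold change 0.22, adjusted p = 0.0681) and without BAY-850 replicate 1 (0.21, adjusted p = 0.0533). NFKB1 had 53.2, 60.9 and 61.8 CPM with DMSO and 62.4, 67.4 and 64.5 CPM with BAY-850, higher in all 3 treated libraries but not called (log2 fold change 0.16, SE 0.0718, adjusted p = 0.149). REL showed overlapping groups at 8.5 to 11.1 CPM and 9.12 to 10.5 CPM (log2 fold change -0.02, SE 0.139).

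The 3 genes of inhibitors and modifiers did not move together. NFKBIA, at 50.9, 46.7 and 43.5 CPM with DMSO, reached 79.0, 82.1 and 88.5 CPM with BAY-850, a fitted log2 change of 0.84 (SE 0.0793, adjusted p = 2.84e-05). TNFAIP3, equally known as a feedback target, had overlapping groups of 37.0, 39.7 and 39.6 CPM and 38.0, 35.9 and 37.8 CPM (log2 fold change -0.04, SE 0.0718, adjusted p = 0.715). NFKBIZ was at 59.1, 67.6 and 63.6 CPM with DMSO and 52.5, 57.3 and 54.0 CPM with BAY-850, lower in every treated library without being called (log2 fold change -0.20, SE 0.0697, adjusted p = 0.0618). Its call depended on the fit. DESeq2 gave an adjusted p of 0.0415, edgeR gave 0.0493 with at least 10 counts in every library and 0.038 in a single fit of all 12 libraries, and leaving out DMSO replicate 1 gave a log2 fold change of -0.25 and an adjusted p of 0.0344.

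In PA-1 cells, BAY-850 raised 1 of the 10 genes, RELA. NFKB2 and RELB were higher in every treated library by smaller amounts that were not called, and the remaining 7 overlapped between the groups. Across all genes tested in this line 4.65% were called higher and 2.48% lower, and the median log2 fold change was 0.185 for the members and -0.002 for the 15212 genes tested. No member was called lower with edgeR, at an unadjusted p under 0.05 or with DESeq2. A lack of overlap between the groups, seen for 3 members, was shown by 27.5% of all genes tested. Without TMM scaling the numbers of all genes called higher and lower in this line were 235 and 231, against 707 and 378 with it, and the member called was again 1.

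RELA was at 33.3, 33.1 and 34.5 CPM with DMSO and at 42.3, 47.5 and 50.8 CPM with BAY-850, a fitted log2 change of 0.48 (SE 0.0749, adjusted p = 0.00134). All treated libraries exceeded all controls, and 1.40 was the fitted fold. NFKB2 was at 87.1, 76.5 and 80.6 CPM and at 90.1, 92.5 and 97 CPM (log2 fold change 0.20, SE 0.0634, adjusted p = 0.0736), and DESeq2 called it (adjusted p = 0.0333). RELB was at 25.2, 27 and 25.2 CPM and at 30.3, 30.3 and 29.5 CPM (log2 fold change 0.22, SE 0.0705, adjusted p = 0.0746). Both are rich in G and C (62.35% and 65.43% of the longest transcript), and the log2 fold changes of 14308 genes in this line rose with GC content (Spearman's rho 0.364, as a description across genes). After removal of each library's trend on GC content, their log2 fold changes were 0.10 and 0.10, while that of RELA was 0.41 and still called. The members poorer in G and C went the other way without being called, BIRC3 from 0.29 to 0.45, REL from 0.35 to 0.45 and SOD2 from 0.17 to 0.25.

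REL depended on a single library. It was at 6.65, 6.32 and 6.42 CPM with DMSO and at 9.48, 9.78 and 5.34 CPM with BAY-850, so that 2 treated libraries lay above and 1 below all controls (log2 fold change 0.35, SE 0.189, adjusted p = 0.29). Without BAY-850 replicate 3, the library with the largest share of ribosomal RNA, the log2 fold change was 0.58 and was called (adjusted p = 0.0214). SOD2, BIRC3 and NFKBIA, which rose in SK-OV-3, overlapped between the groups here. SOD2 was at 14.2, 12.2 and 10.6 CPM with DMSO and 13.8, 15.4 and 12.3 CPM with BAY-850 (log2 fold change 0.17, SE 0.124). BIRC3 had 2.8, 3.44 and 3.56 CPM and 3.39, 3.94 and 4.68 CPM (0.29, SE 0.197), and NFKBIA had 18.4, 15.9 and 16.7 CPM and 18.6, 15.9 and 16.9 CPM (0.01, SE 0.0977). NFKB1 (0.07, SE 0.0822), TNFAIP3 (0.12, SE 0.119) and NFKBIZ (-0.02, SE 0.114) gave log2 fold changes within about 1 SE of 0. When each library was left out in turn, the log2 fold change ranged from 0.08 to 0.29 for SOD2, from 0.16 to 0.40 for BIRC3 and from 0.05 to 0.24 for TNFAIP3, with no call.

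**Figure D2:**
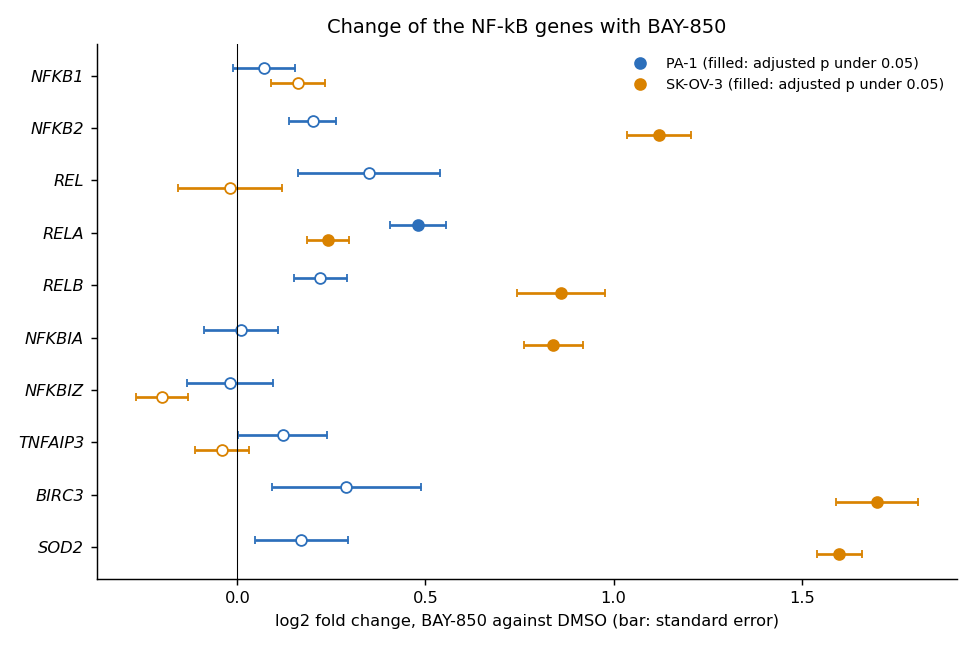
Log2 fold change of each gene with BAY-850 against DMSO (horizontal axis) in PA-1 (blue) and SK-OV-3 (orange), with the standard error as a bar and filled circles for an adjusted p under 0.05. In SK-OV-3, 6 circles are filled, from 0.24 for RELA to 1.70 for BIRC3, and in PA-1 only RELA is filled, at 0.48.

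The difference between the lines in their response was tested with an interaction term in a fit of all 12 libraries. For 5 members the response in SK-OV-3 exceeded that in PA-1, namely SOD2, BIRC3, NFKB2, NFKBIA and RELB. Among the 16830 genes tested, 6.7% were called in this direction and 7.77% in the other, and the median log2 difference was 0.35 for the members and -0.02 for all genes. No member was called in the other direction with edgeR or DESeq2, and 1 (RELA) had an unadjusted p under 0.05. SOD2 differed by 1.42 on the log2 scale (SE 0.135, adjusted p = 6.73e-06), BIRC3 by 1.40 (SE 0.213, adjusted p = 0.000483) and NFKB2 by 0.91 (SE 0.11, adjusted p = 6.03e-05). NFKBIA followed with 0.81 (SE 0.119, adjusted p = 0.000369) and RELB with 0.63 (SE 0.139, adjusted p = 0.00697). RELA, the one gene called in both lines, had the larger fold change in PA-1, but the difference of -0.25 was not called (SE 0.0947, adjusted p = 0.0934). Leaving out PA-1 BAY-850 replicate 1 gave -0.32 and a call (adjusted p = 0.0307). The difference for TNFAIP3 was -0.18 (SE 0.15) and that for NFKBIZ was -0.19 (SE 0.107), neither called.

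The proportions of the subunit RNAs were described by ratios of levels per exon kb within each library. Such RNA ratios do not measure the processing of p100 to p52 or the activity of either arm. In PA-1 cells, NFKB2 RNA exceeded NFKB1 RNA by 6.1 ± 0.522 (ratio, SD, n = 3) with DMSO and by 6.65 ± 0.541 with BAY-850, with overlapping libraries. In SK-OV-3 cells the ratio was 0.658, 0.548 and 0.553 with DMSO and 1.26, 1.16 and 0.997 with BAY-850, so the treated libraries had near equal levels of both and the control libraries had less NFKB2. RELB to RELA gave 1.11, 1.2 and 1.08 in PA-1 with DMSO and 1.05, 0.937 and 0.857 with BAY-850. In SK-OV-3 this ratio was 0.141, 0.16 and 0.158 with DMSO and 0.251, 0.239 and 0.211 with BAY-850. In SK-OV-3 both ratios were thus higher in every treated library than in any control and still below those of PA-1, where every treated library had a lower RELB to RELA ratio than any control. The ratios were not tested.

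**Figure D3:**
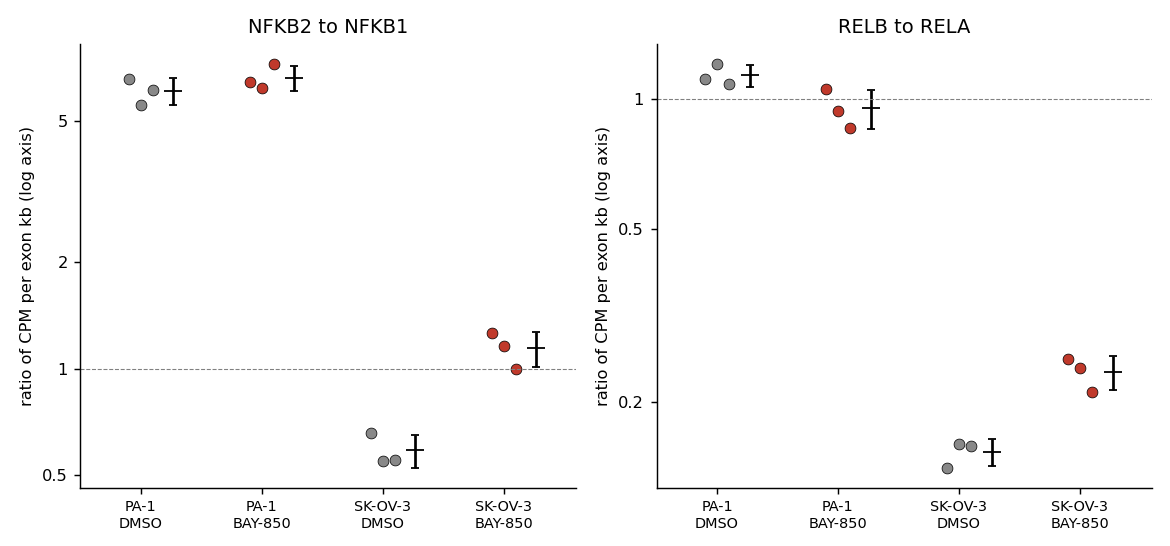
Ratio of NFKB2 to NFKB1 (left) and of RELB to RELA (right) in CPM per exon kb on log axes, with 1 point per library (grey DMSO, red BAY-850), a black bar for the mean and SD of 3 libraries and a dashed line at equal levels. Both ratios are higher in PA-1 than in SK-OV-3, and in SK-OV-3 both are higher in the 3 BAY-850 libraries than in the 3 DMSO libraries.

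Genes upstream and downstream of the members were taken from 5 lists of textbook pathway genes (87 genes in all), written like the members with results of these data known. In SK-OV-3 cells 27 of the 80 that could be tested rose and 5 fell, with a median log2 fold change of 0.22, where 10.8% and 9.56% of all genes tested were called higher and lower. In PA-1 cells 3 of 71 rose and 1 fell, with a median of -0.01, beside 4.65% and 2.48% of all genes. With DMSO, 49 of 78 were higher and 17 lower in SK-OV-3 than in PA-1, beside 40.1% and 40.2% of all genes.

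Of 14 receptors tested in SK-OV-3, 2 were called higher, a share near the 10.8% of all genes. CD40, a TNF-family receptor that feeds both arms, went from 13.7, 12 and 14 CPM to 22.9, 25.3 and 28.7 CPM (log2 fold change 0.97, SE 0.117, adjusted p = 0.000178). TLR2, which senses bacterial lipoproteins, went from 2.41 ± 0.129 to 4.57 ± 0.87 CPM (log2 fold change 0.94, adjusted p = 0.0158). The receptors for TNF (TNFRSF1A) and IL-1 (IL1R1), singled out after their values were seen, had log2 fold changes of 0.05 (SE 0.0541) and 0.05 (SE 0.0662). Among the kinases, 2 of 6 rose, beside the 10.8% of all genes. IKBKB, the IKK-beta of the canonical arm, went up by 0.55 (SE 0.0671) and MAP3K14, the NIK kinase of the noncanonical arm, by 0.33 (SE 0.084) on the log2 scale. MAP3K14 was at 98.3, 87.9 and 74.1 CPM in the treated libraries against 69.3 to 69.5 CPM in the controls.

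Of 18 adaptors tested in SK-OV-3, 4 were called higher and 2 lower, beside 10.8% and 9.56% of all genes. IRAK2, a kinase of the IL-1 and Toll-like receptor complex, rose by 1.23 on the log2 scale (SE 0.106) and RBCK1, a subunit of the linear ubiquitin ligase LUBAC, by 0.78 (SE 0.0544). RNF31, the catalytic LUBAC subunit, and TAB2 also rose, by 0.38 and 0.23, and are named after their values were seen. RIPK1 fell by 0.30 and IRAK1 fell by 0.26 on that scale. In PA-1 cells IRAK1 rose instead, from 102, 100 and 104 CPM to 127, 127 and 125 CPM (log2 fold change 0.31, SE 0.0536, adjusted p = 0.00285). By the interaction test, 19 of the 83 list genes tested were called with a higher response in SK-OV-3 than in PA-1 and 1 with a lower one. Of all genes tested, 6.7% were called higher and 7.77% lower. In PA-1 alone 71 list genes passed the filter, so some of the 83 were kept for their SK-OV-3 counts. TLR2 and LCN2 were among the 19, with PA-1 means of 0.11 and 0.18 CPM under DMSO and no fit in that line. CCL5 was also among them, though called in neither line alone (adjusted p = 0.208 in PA-1 and 0.0727 in SK-OV-3). The list gene with the lower response was IRAK1 (-0.58, SE 0.0752, adjusted p = 0.000112). The other calls in PA-1 were SHARPIN, a further LUBAC subunit, which rose by 0.28, IRAK4, which fell by 0.55, and TNIP1. The count of 1 called lower in PA-1, which is IRAK4, became 0 without DMSO replicate 2 and without BAY-850 replicate 2. It was also 0 with the GC offset together with the replicate number as a block.

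Of 13 other inhibitors tested in SK-OV-3, 6 were called higher, beside 10.8% of all genes. NFKBIE, the gene of IkB-epsilon, went from 7.65 ± 0.671 to 12.8 ± 0.82 CPM (log2 fold change 0.75, SE 0.127, adjusted p = 0.00175). TNIP1, a partner of A20, was the only gene of the inhibitor list to rise in PA-1 too, by 0.62 (SE 0.0617, adjusted p = 1.59e-05) there and by 0.56 (SE 0.0557, adjusted p = 3.99e-05) in SK-OV-3. In PA-1 it stood at 70.8, 66.8 and 63.3 CPM with DMSO and 106, 104 and 98.1 CPM after treatment.

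Of 29 other targets tested in SK-OV-3, 13 rose and 3 fell, beside 10.8% and 9.56% of all genes called higher and lower. The median log2 fold change was 0.6 for the list and -0.009 for all genes tested. The largest increase was that of IL1B, the cytokine IL-1 beta, from 1.71, 1.67 and 1.3 CPM to 19.6, 20.0 and 18 CPM (log2 fold change 3.63, SE 0.152, adjusted p = 5.59e-08). CCL20, a chemokine, followed with 1.08, 0.899 and 0.803 CPM before and 5.58, 6.99 and 7.91 CPM after treatment (2.89, SE 0.249). CXCL1, a neutrophil chemokine and likewise a classical NF-kB target, fell from 356, 355 and 359 CPM to 288, 298 and 300 CPM (log2 fold change -0.26, SE 0.0463, adjusted p = 0.00242). CFLAR, the caspase-8 inhibitor FLIP, fell by 0.52 on the log2 scale (adjusted p = 0.0259), with 54.8 and 56.2 CPM in the first 2 treated libraries and 33.8 CPM in BAY-850 replicate 3 against 68.3 to 70.2 CPM in the controls. PLAU, the urokinase gene, fell by 0.19 and is named after its value was seen. The 3 that fell are near the share of all genes called lower in this line (9.56%).

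**Figure D4:**
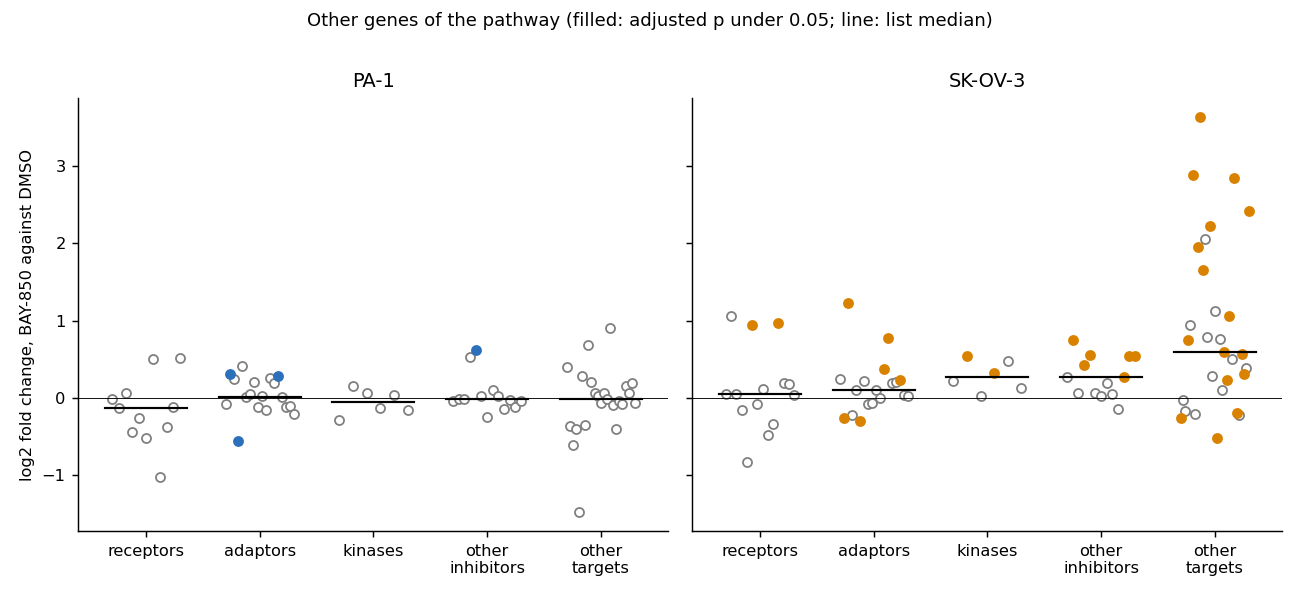
Log2 fold change with BAY-850 (vertical axis) of the genes of 5 pathway lists in PA-1 (left) and SK-OV-3 (right), with 1 circle per gene tested, filled for an adjusted p under 0.05, and a black line at the median of each list. In SK-OV-3 the other targets spread from -0.52 (CFLAR, called) to 3.63 (IL1B, called) around a median of 0.6. In PA-1 they spread from -1.47 (CCL5) to 0.91 (TNFAIP2), neither called. The list medians lie between 0.05 and 0.6 in SK-OV-3 and between -0.13 and 0.02 in PA-1.

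For each member, the gene with the most similar profile over the 12 libraries was found among 16830 genes by Pearson's r of log2 CPM. The libraries fall into 2 lines, so these values take in the difference between the lines and are given as a description. The profile of SOD2 was most like that of NEAT1, a long noncoding RNA (r = 0.9951), and that of BIRC3 most like EPAS1, which encodes HIF-2 alpha (r = 0.9923). NFKB2 paired with RHBDF1 (r = 0.9964), RELB with ARVCF (r = 0.9869), RELA with PKM (r = 0.9976) and NFKB1 with EMP1 (r = 0.9983). NFKBIA paired with WDFY4 (r = 0.9966), NFKBIZ with GRAMD3 (r = 0.9995) and TNFAIP3 with TRIM44 (r = 0.9951). REL had the lowest best match, KAT6A (r = 0.9152). No member was the best match of another member, but some pairs came close, such as NFKBIA with SOD2 (r = 0.992) and NFKB2 with RELB (r = 0.982). NFKB2 and RELB correlated negatively with every other member (r from -0.89 to -0.381).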

How the data were processed

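RNA sequencing libraries were prepared from 12 cultures of PA-1 and SK-OV-3 cells. The authors deposited RSEM expected counts per gene symbol, without scaling between libraries. Per the labels, Bowtie2 2.1.0, RSEM 1.2.15 and hg38 were used; the annotation and the strand setting are not given in the sources used here. Reads that match several genes are shared out by RSEM, so 8.94% to 12.4% of the values were not whole, and overlapping genes may share reads. The labels describe both oligo-dT purification and depletion of ribosomal RNA, and ribosomal RNA genes took 7.94% to 16.9% of the counts.

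The expected counts were rounded and scaled by TMM (edgeR 4.0.16, R 4.3.3). Genes were kept by filterByExpr and tested by glmQLFTest with Benjamini-Hochberg adjustment over all genes tested, within each line, between the lines with DMSO, and for the interaction. Groups come from the sample labels. The SE is the log2 fold change divided by the square root of F. The smallest two-sided p of an exact permutation test is 0.1 for 3 against 3 libraries. No pair of replicates was within counting noise (chi-square divided by its degrees of freedom, 5.05 to 72.7), so each library counted once.

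The members and all gene lists were chosen with earlier results of these data known. Named pathway genes are, per list, line and direction, up to 2 genes with the largest change among those called with a mean of at least 1 CPM. Positions, exon lengths and GC content are from GENCODE v29 (GRCh38), where 23924 of 26475 symbols matched, and SOD2 matched 2 gene models, of which the longer was used. Promoters are from RefSeq (GRCh38.p14). Alternatives were RLE factors, library size with and without ribosomal RNA genes, no filter, at least 10 counts in every library, DESeq2 1.42.0, the replicate number as a block, a GC offset (loess span 0.5) with and without the block, all 12 libraries in a single fit, and leaving out each library. The tests were tried on simulated data with known changes. At a log2 change of 1, the interaction test found 54 of 100 changed genes, against 99 or 100 in the other comparisons. The simulated spread between replicates was the same in both lines and larger than estimated in either (coefficient of variation 0.0916 in PA-1 and 0.144 in SK-OV-3). The members not called by the interaction test had SEs from 0.0947 (RELA) to 0.278 (REL), so the share found does not carry over to each of them. A difference between the lines that was not called may still have been missed.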

Additional observations from a re-analysis of the deposited data

Results flagged for a closer look

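For 5 genes the response to BAY-850 differed between the lines by the interaction test. The log2 fold change in SK-OV-3 exceeded that in PA-1 by 0.91 for NFKB2, 0.63 for RELB, 0.81 for NFKBIA, 1.4 for BIRC3 and 1.42 for SOD2 (adjusted p = 6.03e-05, 0.00697, 0.000369, 0.000483 and 6.73e-06 by edgeR). The log2 fold changes behind these differences were 1.12, 0.86, 0.84, 1.70 and 1.60 in SK-OV-3 and 0.20, 0.22, 0.01, 0.29 and 0.17 in PA-1. Each line was grown in its own medium, and line and medium cannot be told apart.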

How the results depend on the processing

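The counts of members called higher were 6 in SK-OV-3, 5 for the difference between the lines and 8 with DMSO under all settings run with all libraries, and leaving out each library gave 5 to 6, 5 and 8. In PA-1 the count of 1 became 2 without the filter on low counts and with DESeq2, and 1 to 2 when each library was left out. The count of members called lower in SK-OV-3 became 1 (NFKBIZ) with at least 10 counts in every library, with DESeq2 and in the single fit of 12 libraries, and ranged from 0 to 1 without each library. For the difference between the lines that count also ranged from 0 to 1.

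Near-zero values changed sign. NFKBIA in PA-1 was -0.02 by library size, -0.0058 when that size left out ribosomal RNA genes and -0.03 with the GC offset, alone or with the block, and -0.05 to 0.07 without each library. NFKBIZ in PA-1 ranged from -0.05 to 0.02 without each library, and REL in SK-OV-3 was 0.01 with the GC offset, alone or with the block, and -0.11 to 0.07 without each library. The cause was not tested.

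Pathway genes called higher in PA-1 (3) were 1 by library size, 5 without the filter, 5 with DESeq2 and 1 with the GC offset and block. Those called lower (1) were 2 when ribosomal RNA genes were left out of the library size, 4 without the filter, 3 with at least 10 counts, 4 with DESeq2, 2 with the GC offset, 0 with the GC offset and block, and 0 to 2 without each library. In SK-OV-3 those called lower ranged from 2 to 5 without each library. For the difference between the lines they were 2 with DESeq2 and 1 to 2 without each library.

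Same-numbered libraries of a line showed no shared deviation from their group means. They correlated at -0.0277 to 0.00417, and libraries with unlike numbers at -0.0468 to 0.0666. These values cannot tell whether same-numbered cultures were set up together. With the replicate number as a block, members called higher were 1, 6, 5 and 8 in the 4 comparisons, so the block changed no member's call, and all genes called in PA-1 were 624 higher and 307 lower. Over all genes in PA-1, 707 higher and 378 lower became 235 and 231 by library size, 458 and 139 with the GC offset, 345 and 77 with the GC offset and block, and 469 and 214 in the single fit. Those called lower became 588 without the filter and 667 with DESeq2. Leaving out a library gave 273 to 810 higher and 65 to 418 lower in PA-1 and 993 to 2050 and 788 to 1852 in SK-OV-3. Genes called lower for the difference between the lines were 773 by library size, against 1307.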
